A study of Homo sapiens with 2 samples.

Results

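Cells adapt to low oxygen and meet their demand for sugar through 2 linked sets of genes, and 41 genes of these sets were examined in SW480 cells carrying TFAP2E or an empty vector. The genes were chosen by name, as regulators and targets of the hypoxia-inducible factors (HIF) and as enzymes, transporters and regulators of glycolysis, and were found through the platform's annotation of probe sets. Of the 41, 37 had a probe set assigned to that gene alone, out of 18417 genes with such a probe set on the array. For PGAM1 the probe sets also named another gene. SLC16A1, SLC16A3 and CA9 had no probe set under their name in the annotation and were not analysed here.

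SW480 is an established human colorectal adenocarcinoma line. One group held SW480 cells that overexpressed the coding sequence of TFAP2E, which encodes the transcription factor AP-2 epsilon, and the other held SW480 cells with the empty pTarget vector, with 1 Affymetrix array in each. Per the labels, both were stable transfectants selected with Geneticin and single clones had been picked, but the labels do not say how many clones an array stands for, nor do they give an oxygen level or glucose concentration for the cultures. No promoter or inducing agent beyond the vector's name is given. Neither group has a replicate, so that no test was possible and a difference between the groups cannot be told apart from a difference between clones or arrays.

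In cells with enough oxygen, prolyl hydroxylases of the EGLN family mark the HIF alpha subunits for destruction by the VHL ubiquitin ligase. When oxygen is scarce the alpha subunits last, pair with ARNT and switch on genes for glucose uptake, glycolysis, blood vessel growth and matrix synthesis. This control acts mainly on the stability of the HIF proteins, which an array does not measure. Colorectal cancer cells, like many tumour cells, often run glycolysis at a high rate even in oxygen.

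All levels below are RMA values on the log2 scale, and all differences are the TFAP2E array minus the empty vector array. A gene was compared when its higher value reached 5.55, the median over every probe set of the arrays together. Of the 18417 genes 11548 were compared. Their differences had a median of 0.04, and the central 95% lay between -0.37 and 0.47. Among the 37 genes of the hypoxia and glycolysis list with their own probe set, 34 were compared and 3 were dim on both arrays. The TFAP2E probe set itself read 6.81 on the TFAP2E array and 6.77 on the empty vector array, so that the introduced sequence is not visible in it. The region of the transcript it detects is not stated in these sources. Of 12 markers of colorectal epithelium 9 were compared, 2 higher and 7 lower in the TFAP2E cells, while CEACAM5, KRT20 and LGR5 were dim. EPCAM differed by -0.06, KRT8 by -0.20, ASCL2 by -0.54 and CDH1 by -0.71, and VIL1 read 6.22 with TFAP2E and 4.94 with the empty vector, where it was dim. Among markers of other cells, 2 of 7 for fibroblasts, 1 of 6 for endothelium and 2 of 6 for leukocytes were compared. The leukocyte marker CD68, a lysosomal protein also made by other cells, differed by 0.57, above the central 95% of genes. CD14, the other leukocyte marker compared, differed by -0.19 and was dim on the TFAP2E array. COL1A1 and COL1A2 of the fibroblast markers differed by 0.05 and -0.09, and CLDN5 of the endothelial markers by -0.13. The part of other cells in the values below was not tested.

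The members differed by little and in a split pattern. None of the 34 was higher or lower by 1.5-fold, where 0.892% of all genes compared were higher and 0.606% lower by that much. At 2-fold there was likewise none, against 0.0866% higher and 0.113% lower among all genes compared. Of the 34, 25 read higher and 9 lower in the TFAP2E cells, and among all genes compared 59.2% read higher and 39.5% lower. Their median difference was 0.11, and 0.04 for all genes compared. The HIF targets ADM, VEGFA and P4HA1 had the highest differences, at about 1.4-fold. EGLN3, PFKFB3 and ANKRD37, which HIF also induces, had the lowest. Above the central 95% of all genes, where 2.50% lie on that side, were 2 of the 34, and none lay below it.

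**Figure D1:**
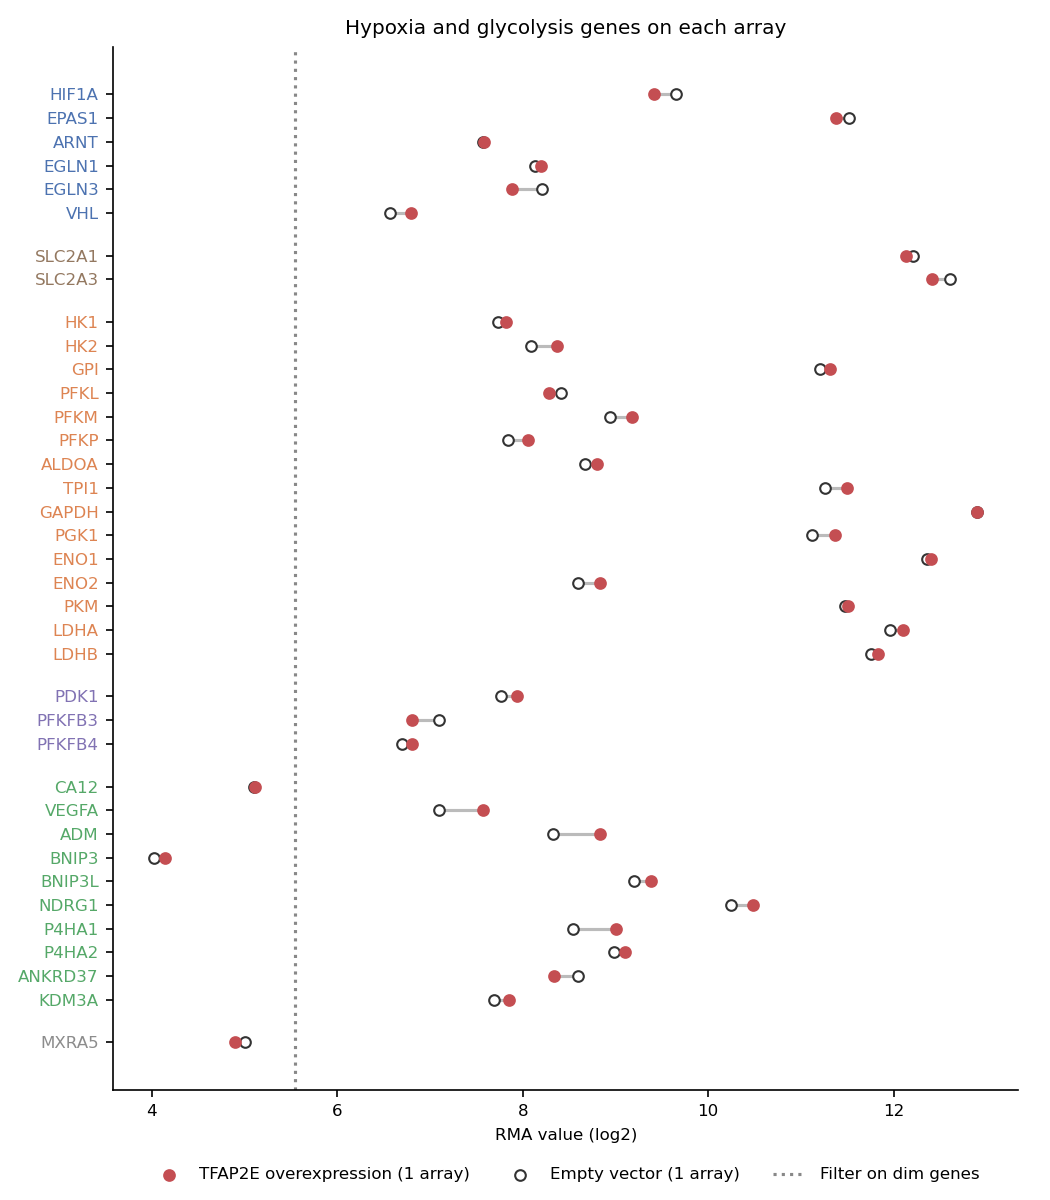
RMA values (log2, horizontal axis) of the 37 genes with their own probe set on the TFAP2E array (filled) and the empty vector array (open), 1 array each, grouped by role from oxygen sensing at the top to MXRA5 at the bottom. The dotted line marks the filter at 5.55, with CA12, BNIP3 and MXRA5 to its left, and the widest gaps are those of ADM, VEGFA and P4HA1.

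Among the 6 genes that sense oxygen and carry the response, 3 read higher and 3 lower, with ARNT at 0 and changing side with the scaling, and the median was -0.07. HIF1A, the alpha subunit found in most cells, read 9.41 with TFAP2E and 9.65 with the empty vector, a difference of -0.24. EPAS1, which encodes the alpha subunit HIF-2 alpha, read 11.38 with TFAP2E and 11.52 with the empty vector, and differed by -0.15. Both alpha subunits were therefore lower in the TFAP2E cells, each by less than the range that held the central 95% of genes. ARNT, the partner of both, read 7.58 on each array, and its difference of 0.00 changed sign with quantile normalization and with removal of the loess trend.

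The hydroxylases that oppose HIF did not move together. EGLN1, the main oxygen sensor in most cells, read 8.20 with TFAP2E and 8.13 with the empty vector, a difference of 0.07. EGLN3, a hydroxylase that is itself strongly induced by HIF, read 7.89 with TFAP2E and 8.21 with the empty vector. Its difference of -0.32 was the lowest of the 34 and corresponds to a level 1.25-fold lower. VHL, which recognises hydroxylated HIF, read 6.80 with TFAP2E and 6.57 with the empty vector, at 0.23. VHL lies among genes that were higher as a stretch: the 10 compared genes on each side of it had a median difference of 0.21, about that of VHL itself.

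The glucose transporters read slightly lower in the TFAP2E cells. SLC2A1 (GLUT1), the main glucose importer of many tumour cells, read 12.14 with TFAP2E and 12.20 with the empty vector, a difference of -0.07. SLC2A3 (GLUT3), which binds glucose tightly, read 12.41 with TFAP2E and 12.60 with the empty vector, a difference of -0.19. The near-identical SLC2A14, which is no member, differed by -0.29, and probes of these transporters may not tell them apart. By their differences both members lay below the median of all genes compared, while the enzymes that use the imported glucose lay mostly above it.

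Of the 15 glycolytic enzymes with their own probe set, lactate dehydrogenases included, 13 read higher and 2 lower, with GAPDH among the lower at 0.00 and changing side with the scaling. Their median difference was 0.13 and their mean 0.13, and the values ran from -0.12 for PFKL to 0.28 for HK2. Among all genes compared 59.2% read higher. Above the median of all genes compared, 0.04, lay 12 of the 15. No enzyme left the central 95% of all genes. Among these 15, every isozyme read higher at 8 of 10 steps, counting lactate dehydrogenase and leaving out the mutase, with GAPDH and the phosphofructokinases as the exceptions.

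At the entry of the pathway, the hexokinases trap glucose in the cell by phosphorylation. HK2, the hexokinase that HIF induces, read 8.37 with TFAP2E and 8.09 with the empty vector, a level 1.21-fold higher. HK1, the broadly expressed hexokinase, read 7.82 with TFAP2E and 7.73 with the empty vector, at 0.09, close to its neighbours' median of 0.09. GPI, which converts glucose phosphate into fructose phosphate, differed by 0.11 (11.31 with TFAP2E, 11.21 with the empty vector).

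The 3 phosphofructokinases, which commit sugar to glycolysis, did not share a direction. The muscle-type PFKM read 9.17 with TFAP2E and 8.94 with the empty vector, and the platelet-type PFKP 8.06 with TFAP2E and 7.84 with the empty vector. Their differences of 0.23 and 0.22 were alike. The liver-type PFKL, in contrast, read 8.29 with TFAP2E and 8.41 with the empty vector, at -0.12, the lowest of the enzymes.

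In the middle of the pathway, ALDOA, which splits the sugar bisphosphate, read 8.80 with TFAP2E and 8.67 with the empty vector, a difference of 0.13. TPI1, which interconverts the resulting triose phosphates, read 11.49 with TFAP2E and 11.25 with the empty vector, a difference of 0.24. TPI1 was the only member with another probe set of its own, and that probe set, at 9.10 with TFAP2E and 8.88 with the empty vector, gave 0.22. GAPDH, often used as a reference gene, read 12.90 on each array, and its difference of 0.00 changed sign with centring and with quantile normalization. PGK1, which makes ATP in the payoff phase, read 11.37 with TFAP2E and 11.11 with the empty vector, a difference of 0.25. TPI1 and PGK1 thus read higher on either side of a GAPDH that was level.

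In the lower part of the pathway, PGAM1, a phosphoglycerate mutase, could not be separated from PGAM4. The 5 probe sets that name both genes differed by 0.04 to 0.06, near the median of all genes. A pair of them had identical values, 9.38717 with TFAP2E and 9.34158 with the empty vector, so that the 5 are not separate readings. ENO2, the enolase typical of neurons that HIF also induces, read 8.83 with TFAP2E and 8.60 with the empty vector, at 0.23. The ubiquitous enolase ENO1 read 12.40 with TFAP2E and 12.35 with the empty vector, at 0.05. Pyruvate kinase, PKM, read 11.50 with TFAP2E and 11.47 with the empty vector, at 0.03, so that ENO1 and PKM stayed at the level of genes in general. LDHA, which turns pyruvate into lactate, read 12.09 with TFAP2E and 11.96 with the empty vector, at 0.13. LDHB, the subunit common in oxidative tissues, read 11.83 with TFAP2E and 11.75 with the empty vector, at 0.08. The genes for glycolytic enzymes have many processed pseudogenes, and how far probes are shared with these copies was not tested.

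The 3 regulators of the pathway split. PFKFB3, which makes the activator of phosphofructokinase, read 6.80 with TFAP2E and 7.10 with the empty vector, a level 1.23-fold lower (log2 difference -0.30). The related PFKFB4 read 6.80 with TFAP2E and 6.70 with the empty vector, at 0.10. PDK1, a kinase that keeps pyruvate out of the mitochondrial dehydrogenase, read 7.94 with TFAP2E and 7.77 with the empty vector, at 0.17.

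**Figure D2:**
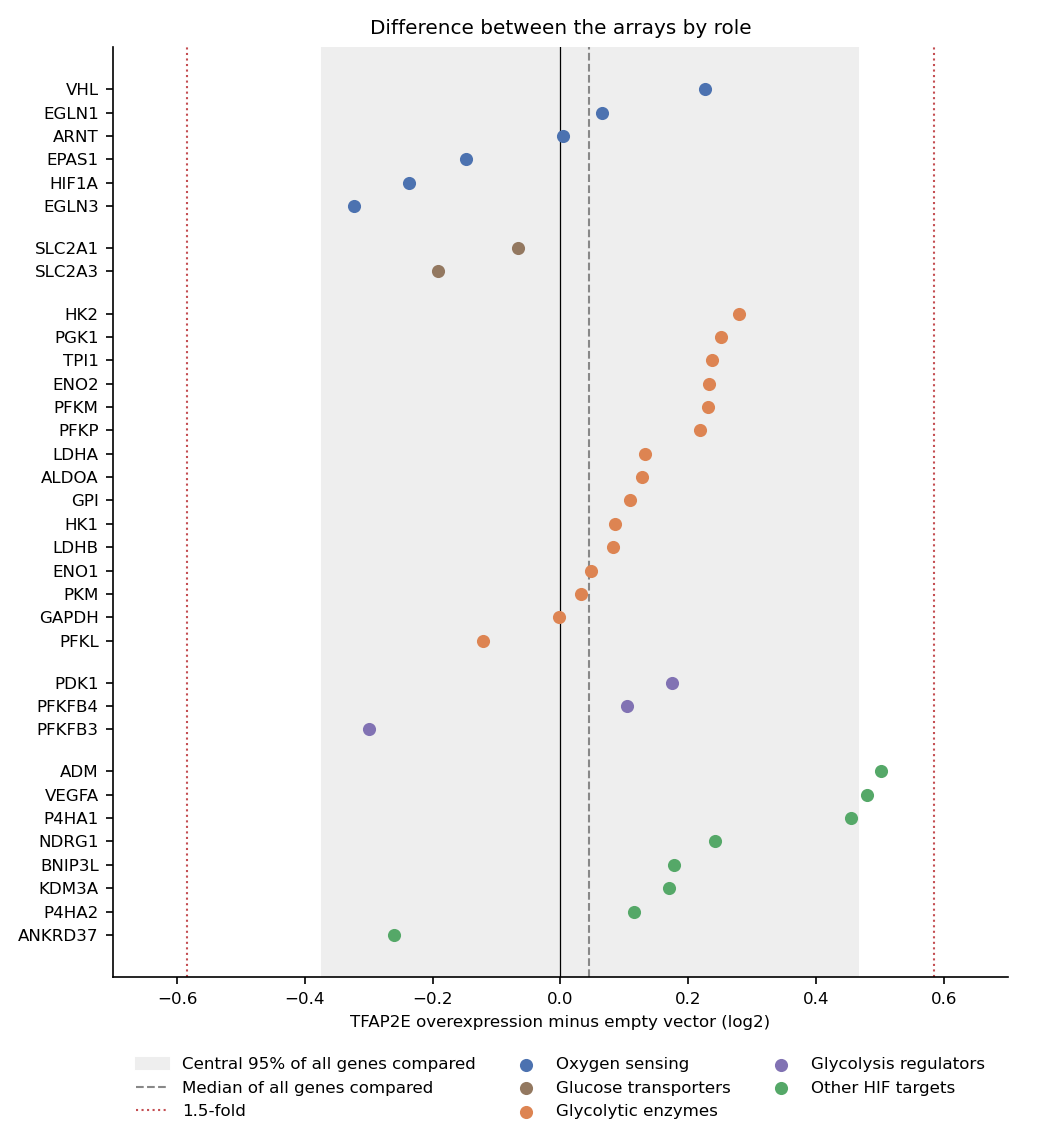
Difference between the TFAP2E array and the empty vector array (log2, horizontal axis) for the 34 genes compared, by role and sorted within each role. The shaded band holds the central 95% of all 11548 genes compared, the dashed line is their median of 0.04 and the dotted lines mark 1.5-fold; only ADM and VEGFA leave the band.

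The 8 compared genes listed here as other HIF targets read higher in 7 cases, with a median of 0.21 and a mean of 0.24. Among all genes compared 59.2% read higher. This short list leaves out HIF-induced genes placed under other roles, such as EGLN3, PFKFB3 and the glucose transporters. With those added, 10 of 15 read higher, with a median of 0.12. Among the further HIF targets described below, 19 of 29 read higher, with a median of 0.09. ADM, the vessel-dilating peptide adrenomedullin, read 8.83 with TFAP2E and 8.33 with the empty vector and was 1.42-fold higher. VEGFA, the main growth factor for blood vessels, read 7.58 with TFAP2E and 7.10 with the empty vector and was 1.39-fold higher. P4HA1, a collagen prolyl hydroxylase subunit, read 9.002 with TFAP2E and 8.547 with the empty vector and was 1.37-fold higher. ADM and VEGFA lay above the central 95% of all genes and P4HA1 just inside its edge. The median differences of their neighbours were 0.01 for ADM, 0.00 for VEGFA and 0.07 for P4HA1, so that each lay well above the stretch around it.

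The other HIF targets differed less. NDRG1, a stress gene widely used as a hypoxia marker, read 10.49 with TFAP2E and 10.24 with the empty vector, at 0.24. Its neighbours had a median of 0.21, as for VHL, and NDRG1 exceeded them by 0.03. The mitophagy receptor BNIP3L read 9.38 with TFAP2E and 9.20 with the empty vector, at 0.18, among neighbours at -0.06. KDM3A, a histone demethylase that HIF induces, read 7.86 with TFAP2E and 7.69 with the empty vector, at 0.17. P4HA2, the sister subunit of P4HA1, read 9.10 with TFAP2E and 8.99 with the empty vector, at 0.12, well below P4HA1 in its difference. ANKRD37, an ankyrin repeat gene induced in hypoxia, was the exception, at 8.33 with TFAP2E and 8.59 with the empty vector (-0.26). Its neighbours were lower too, with a median of -0.16.

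The remaining members were dim on both arrays, below 5.55. BNIP3, a mitophagy receptor that is a strong HIF target in many cells, read 4.15 with TFAP2E and 4.03 with the empty vector. CA12, a carbonic anhydrase on the cell surface, read 5.12 with TFAP2E and 5.11 with the empty vector. MXRA5, a matrix protein placed in neither set here, read 4.89 with TFAP2E and 5.01 with the empty vector. Values at this level are not read as expression, and no fold is given for them.

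Set side by side, the 15 glycolytic enzymes had a median difference of 0.13 and the 8 other HIF targets one of 0.21, a gap of -0.08 on the log2 scale (enzymes minus other targets). The range of the enzymes, from -0.12 to 0.28, lay wholly within that of the targets, from -0.26 to 0.50. The order depended on which genes were counted as targets. With the HIF-induced transporters, regulators and hydroxylases of the list added, 15 targets had a median of 0.12, below that of the enzymes, and 10 of them read higher and 5 lower. Removal of the loess trend of difference on level lowered the median of the enzymes to 0.08, with that of all genes then at 0.01. Relative to its chromosomal neighbours, the median enzyme stood at 0.12 and the median target at 0.19. Of all 34 members, 23 stood above their neighbours, against 50.0% of all genes placed, and 9 lay within 0.1 of them.

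**Figure D3:**
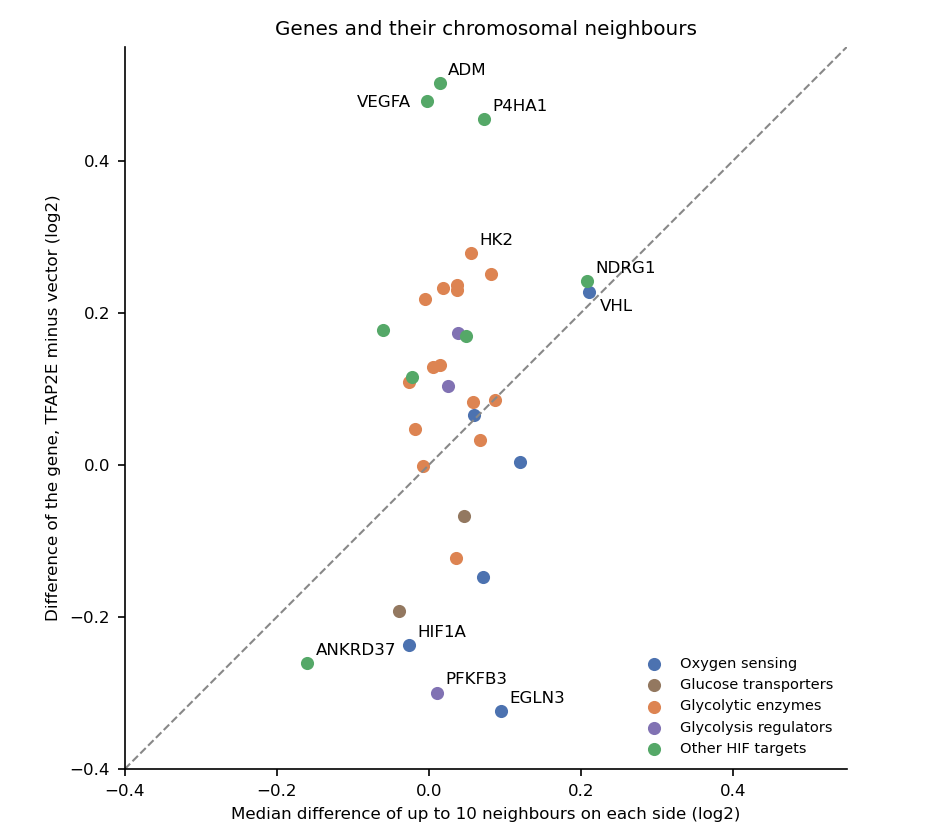
Difference of each of the 34 genes compared (log2, vertical axis) against the median difference of up to 10 compared genes on each side of it along the chromosome (log2, horizontal axis; 16 neighbours in all for PFKP and 20 for the others), with 1 point per gene and the dashed line marking equality. NDRG1 and VHL lie next to the line at about 0.2, whereas ADM, VEGFA and P4HA1 lie far above it, with neighbours between 0.00 and 0.07.

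Promoter sequences were set beside these values, since HIF binds the core ACGTG or GCGTG and AP-2 proteins bind GCCNNNGGC. RefSeq promoter windows (GRCh38.p14) were cut to the 250 bases before the gene start and searched for these letters on both strands. A window was matched for 29 of the 34 genes compared, VHL, SLC2A3, VEGFA, BNIP3L and NDRG1 having none in the table. A HIF core stood in 18 of the 29 windows, 62.1%, and in 57.8% of the windows of all genes compared. For the core ACGTG alone the shares were 34.5% of the members and 23.6% of all genes compared, and 7 of 15 enzyme windows held it. The core GCGTG alone ran the other way, at 34.5% of the members and 45.9% of all genes compared, with 4 of 15 enzyme windows. The AP-2 motif was in 6 of the 29 windows, 20.7%, and in 29.2% of those of all genes compared. These are matches of letters and not sites shown to be bound.

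Shown here are the windows of the members with the highest differences that had one (ADM and P4HA1), the lowest (EGLN3, PFKFB3 and ANKRD37), and the highest and lowest enzymes (HK2 and PFKL). Capitals mark the motif matches, runs of 9 for AP-2 and shorter runs for the HIF core. They run 5′ to 3′ on the strand of the gene and end at the base before its start. The ADM window lies at chr11:10304823-10305072 on the plus strand. That of P4HA1 is chr10:73096867-73097116 on the minus strand. HK2 has chr2:74833877-74834126 on the plus strand. For PFKL it is chr21:44299803-44300052 on the plus strand. ANKRD37 has chr4:185396591-185396840 on the plus strand. For PFKFB3 the window is chr10:6144671-6144920 on the plus strand. EGLN3 has chr14:33951075-33951324 on the minus strand.
ADM: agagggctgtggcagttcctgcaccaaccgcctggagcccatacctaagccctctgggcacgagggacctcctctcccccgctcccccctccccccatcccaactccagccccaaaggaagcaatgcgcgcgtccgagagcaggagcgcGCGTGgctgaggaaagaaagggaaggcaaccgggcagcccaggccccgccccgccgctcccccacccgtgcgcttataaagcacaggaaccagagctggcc
P4HA1: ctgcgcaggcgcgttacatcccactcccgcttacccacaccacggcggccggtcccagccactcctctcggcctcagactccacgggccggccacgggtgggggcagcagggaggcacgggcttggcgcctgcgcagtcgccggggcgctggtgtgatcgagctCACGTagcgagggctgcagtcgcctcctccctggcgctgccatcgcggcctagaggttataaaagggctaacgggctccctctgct
HK2: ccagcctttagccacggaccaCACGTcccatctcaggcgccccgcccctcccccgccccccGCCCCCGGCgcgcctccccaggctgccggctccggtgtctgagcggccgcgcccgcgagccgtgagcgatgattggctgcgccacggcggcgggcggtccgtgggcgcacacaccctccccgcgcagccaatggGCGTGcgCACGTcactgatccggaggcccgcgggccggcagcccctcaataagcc
PFKL: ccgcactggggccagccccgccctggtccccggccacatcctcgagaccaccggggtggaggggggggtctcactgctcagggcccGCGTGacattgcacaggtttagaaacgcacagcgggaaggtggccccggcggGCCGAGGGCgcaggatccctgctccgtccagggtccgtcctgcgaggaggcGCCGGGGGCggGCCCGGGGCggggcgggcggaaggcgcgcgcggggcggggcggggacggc
ANKRD37: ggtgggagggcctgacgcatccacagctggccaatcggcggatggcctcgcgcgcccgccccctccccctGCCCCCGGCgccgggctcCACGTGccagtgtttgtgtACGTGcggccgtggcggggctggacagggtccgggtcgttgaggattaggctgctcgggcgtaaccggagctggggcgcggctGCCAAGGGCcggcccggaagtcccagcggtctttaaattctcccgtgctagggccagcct
PFKFB3: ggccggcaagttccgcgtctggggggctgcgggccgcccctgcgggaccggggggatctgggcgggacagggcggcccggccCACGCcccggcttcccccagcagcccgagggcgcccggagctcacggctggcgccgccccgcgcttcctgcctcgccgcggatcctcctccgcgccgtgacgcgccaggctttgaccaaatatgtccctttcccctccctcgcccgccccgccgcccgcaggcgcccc
EGLN3: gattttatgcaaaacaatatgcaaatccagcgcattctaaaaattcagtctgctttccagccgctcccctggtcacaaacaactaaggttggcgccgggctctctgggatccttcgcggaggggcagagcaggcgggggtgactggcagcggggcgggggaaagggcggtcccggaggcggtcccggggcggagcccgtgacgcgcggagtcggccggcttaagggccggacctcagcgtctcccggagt

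The windows did not sort by direction. ADM and P4HA1, both higher, held 1 HIF core each, which began 101 bases before the start in ADM and 86 bases in P4HA1. ANKRD37, which read lower, held 3 matches of ACGTG, of which the pair beginning 162 and 161 bases before the start is the same palindrome read on both strands. PFKFB3, also lower, held 1 core, and EGLN3 none. For AP-2, PFKL held 3 matches and ANKRD37 2, and both read lower, while HK2 held 1 and read higher. No AP-2 match stood in the windows of ADM, P4HA1, PFKFB3 or EGLN3.

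Further genes of the same pathways, 97 in number, were listed apart from the members, and 68 of them were compared. Of these, 44 read higher and 24 lower, with a median of 0.09. Among all genes compared 59.2% read higher and 39.5% lower, with a median of 0.04. Above their neighbours stood 38 of the 68, against 50.0% of all genes placed. At 1.5-fold 3 were higher and 1 lower, where 0.892% of all genes compared were higher and 0.606% lower.

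Among 29 further HIF targets 19 read higher and 10 lower, with a median of 0.09, where 59.2% of all genes compared read higher. Above the median of all genes compared lay 17 of the 29, and 17 stood above their neighbours. The stress-induced mTORC1 inhibitor DDIT4 read 8.96 with TFAP2E and 7.98 with the empty vector, at 0.98. PLIN2, which coats lipid droplets, read 8.65 with TFAP2E and 7.93 with the empty vector and was 1.65-fold higher. TXNIP, an arrestin-like protein that restrains glucose uptake, read 8.80 with TFAP2E and 8.17 with the empty vector and was 1.54-fold higher, among neighbours with a median of 0.18. TXNIP stood just under 1.5-fold with quantile normalization, at 0.576, and with the loess trend removed, at 0.577. These 3 genes answer to other stress and nutrient signals besides HIF. The lowest of the list were the chemokine receptor CXCR4, at -0.33, and SLC2A14, at -0.29. Probes may not tell SLC2A14 from the member SLC2A3, so its value may not be a separate reading. PLOD2, a collagen lysyl hydroxylase, was dim on both arrays. The other genes of the HIF machinery split evenly, 5 higher and 5 lower, with a median of 0.01. The ubiquitin ligase parts ELOC, at 0.24, and CUL2, at 0.19, were highest. ELOC stands among neighbours with a median of 0.25. The HIF coactivator CREBBP, at -0.27, and HIF3A, at -0.25 and dim on the TFAP2E array, were lowest.

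The list of mitochondrial pyruvate carriers and of subunits and regulators of pyruvate dehydrogenase held genes at both ends of the scale. Of 11 compared, 10 read higher and 1 lower, with a median of 0.13, where 59.2% of all genes compared read higher. The median of their neighbours' medians was 0.11, and 8 of the 11 stood above their neighbours. PDP1, a phosphatase that activates pyruvate dehydrogenase, read 9.9996 with TFAP2E and 10.76 with the empty vector, a level 1.69-fold lower. Its neighbours went the other way, with a median of 0.24. The pyruvate dehydrogenase kinases, which inhibit the same enzyme, read higher in 4 of 4 cases, singled out after their values were seen. PDK4 read 5.83 with TFAP2E and 5.30 with the empty vector, where it was dim, and PDK3 read 7.38 with TFAP2E and 7.02 with the empty vector. PDK2 differed by 0.10 among neighbours at 0.08, and the member PDK1 by 0.17 among neighbours at 0.04. Whether the kinases and PDP1 moved together was not tested. DLD, a subunit of the dehydrogenase complex, differed by 0.41 among neighbours at 0.27, and PDK4 by 0.53 among neighbours at 0.23.

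**Figure D4:**
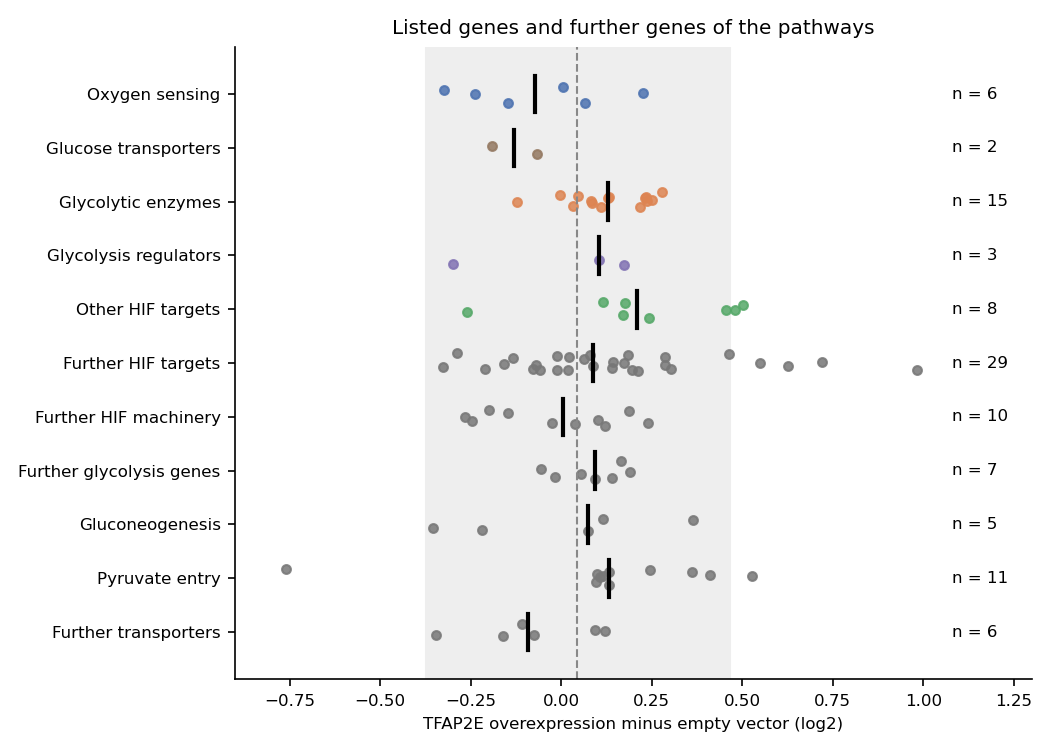
Difference between the TFAP2E array and the empty vector array (log2, horizontal axis) for each compared gene of the listed roles (coloured) and of the further pathway lists (grey), with 1 point per gene and a black bar at each median. The band and the dashed line are the central 95% and the median of all genes compared; the point far to the left is PDP1 at -0.76 and the one far to the right is DDIT4 at 0.98.

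The less common isozymes and side branches were mostly dim or close to the median. Of 15 further glycolysis genes with their own probe set 7 were compared, 5 higher and 2 lower, from the aldolase ALDOC at -0.05 and BPGM, which diverts a glycolytic intermediate in red cells, at -0.02 to the mutase PGAM2 at 0.19 and the muscle enolase ENO3 at 0.17. BPGM turned positive with centring. Among 5 genes of gluconeogenesis, the reverse pathway, the mitochondrial carboxykinase PCK2 was highest at 0.36 and the phosphatase subunit G6PC3 followed at 0.12, while the bisphosphatase FBP1, dim on the TFAP2E array, was lowest at -0.35 and pyruvate carboxylase, PC, differed by -0.22. Of 6 further sugar and lactate carriers 2 read higher and 4 lower, with a median of -0.09. BSG, the chaperone of the lactate transporters, was highest at 0.12 and the sugar transporter SLC2A8 followed at 0.09, whereas its relatives SLC2A6, at -0.35, and SLC2A10, at -0.16, were lowest.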

How the data were processed

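Total RNA of 2 SW480 cultures was measured on 2 Affymetrix arrays. The deposited table holds log2 values. The submitters' processing notes name RMA as the method with which the authors made 1 value for each probe set. Version, software and genome build: not given in the sources used here. RMA sets the probe values of arrays to a common distribution before it makes probe set values, so a change shared by all transcripts may not appear. The probe set values were not fully matched. They ran from 1.42 to 13.10 on the TFAP2E array and from 1.34 to 13.26 on the empty vector array. Quantile normalization of them moved the median difference of all genes compared from 0.04 to 0.02. No scanner files were used.

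Of 33297 probe sets 19460 had 1 gene symbol in the platform annotation, 1754 had several and 12083 had none. Symbols were updated by Entrez identifier through RefSeq (19429 found). The probe set with the highest mean stood for its gene. The filter and sizes are given with the results. Chromosomal neighbours came from the order of genes in RefSeq, and no array coordinate is printed. Calculations used Python 3.11.15, numpy 2.4.6, pandas 2.3.3 and statsmodels 0.14.6. On simulated data only the recovery of planted differences was checked, which bears on the subtraction alone. The filter, lists, neighbours, scalings and motif search were not checked in that way. The number of arrays limits the precision, and no value has an error.

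The members and lists were chosen with earlier results of these data known. The text names every member, and from each further list the genes past 1.5-fold and the highest 2 and lowest 2. Alternatives were 3 scalings, 3 filters, the mean of probe sets, a floor, other list memberships, list means and subtraction of the neighbours' median.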

Additional observations from a re-analysis of the deposited data

How the results depend on the processing

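No member reached 1.5-fold or 2-fold under any of the 8 alternatives run for these counts. Of 72 values of lists and counts, 68 stayed within 1.5 times the reported value, a limit chosen after the values were seen. The 72 include these member counts under each of the 8 alternatives, which were 0 throughout. The median of the enzymes was also exactly 0.12841 under every filter, the floor, the mean of probe sets and without LDHA and LDHB. Many of the 68 could therefore hardly have moved, and their number does not measure how firm the medians are. The other 4 kept their sign. The median of the glycolytic enzymes became 0.0764 with the loess trend removed. The median of the other HIF targets became 0.12 with the HIF-induced transporters, regulators and hydroxylases added. That is below the enzymes' median of 0.13, so the order of both medians turned with this list. The gap was not among the 72 values for this list, and its kept sign does not cover that choice of genes. The gap between both medians, -0.08, became -0.0453 with no filter on dim genes, where CA12 and BNIP3 entered. The median of all members, 0.11, became 0.0725 with the neighbours' median subtracted. Filters and the floor left a compared gene's own value as it was. Of the alternatives run for single genes, only the scalings and, for TPI1 alone, the mean of its probe sets bear on members. That mean took TPI1 from 0.237 to 0.231. The scalings moved the 34 members by at most 0.0251 with centring, 0.0516 with quantile normalization and 0.0534 with the loess trend removed. Small as they are, these moves changed the sign or the size by over 1.5 times for 5, 6 and 9 of the 34 in the same order, none of which differed by over 0.13 to begin with. With the loess trend removed PKM came to 0.0002, EGLN1 to 0.02, HK1 to 0.04 and P4HA2 to 0.06. The median of all genes, 0.04, was 0.07 with centring, 0.02 with quantile normalization and 0.01 with the loess trend removed. Why these values moved was not tested beyond the change in genes counted. No paired analysis was possible because there is a single array on each side, and leaving out an array leaves no comparison.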
